A study of Homo sapiens with 4 samples.

Results

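Antisense long noncoding RNA genes are named after the gene on the opposite strand, so that *DICER1-AS1* is the antisense gene of *DICER1*. Their members were the genes with a symbol ending in -AS1, -AS2 or -AS3, to which a probe led through its RefSeq accession. A probe had to be called well above background by the scanner software on both mock arrays or on a transfected array. Of 1045 such genes on the array, 587 met this rule, out of 16659 named genes that met it and 22435 named genes in all. By their endings, 554 were -AS1, 26 were -AS2 and 7 were -AS3 genes. The members were thus chosen by measured values, namely the detection of their probes on these arrays, and not by the direction of a difference.

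The study asked which genes respond to the guide strand *miR-486-5p* and the passenger strand *miR-486-3p* of pre-*miR-486* in lung adenocarcinoma (LUAD) cells. Cells labelled A549, an established human LUAD line, were given *miR-486-5p* (1 array), *miR-486-3p* (1 array) or the transfection reagent alone (mock, 2 arrays). The reagent was Lipofectamine RNAiMax in all 3 groups, so every group received it. Neither the time after transfection nor the dose on the arrays is given in the labels, and nothing says whether the mock arrays came from separate cultures. Each strand therefore rests on 1 array without a replicate check, and the p-values measure the spread between the mock arrays, which may be technical.

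A miRNA guides an Argonaute protein to RNAs that hold a match to its seed, mostly in the 3′ end of mRNAs. An antisense transcript can overlap its sense gene, or it can start beside the sense start and run away from it. Some such transcripts act on the chromatin or the RNA of the sense gene, some bind miRNAs, and for most no function is known. An array probe reads the steady level of the transcript only, and in bulk RNA fewer cells of a type and less RNA per cell cannot be told apart.

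The marker genes of the cells did not all match the label. The keratins *KRT8* and *KRT18* were bright, with a processed signal of 1226 and 1242 for *KRT8* and of 19650 and 19198 for *KRT18* on the mock arrays in their brightest probe. *CDKN2A*, the gene of p16, lies in a locus that A549 cells are known to have lost, yet its brightest probe read 7439 and 7208 on the mock arrays. *CDH1*, the epithelial cadherin, was well above background on none of the 4 arrays, and *AKR1B10*, an aldo-keto reductase abundant in A549 cells, was not well above background on either mock array. *EPCAM* read 4.84 and 8.09 on the mock arrays. The other markers checked for the label, *KRT19*, *AKR1C1* and *NQO1*, were well above background on all 4 arrays. On the mock arrays *KRT19* read 22.66 and 21.97, the brightest *AKR1C1* probe 24.98 and 27.51, and *NQO1* 133.2 and 129.8. Of the markers of other cells, *PECAM1* and *COL3A1* were on no array well above background, *COL1A1* was so on 2 arrays and read 5.04 and 5.55 on the mock arrays, *PTPRC* was so in 2 of its 5 probes, and *SFTPC* read 14.3 and 13.2. The cells are therefore named here by their label only, and the part of this in the results was not tested.

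The arrays were alike in depth. The 75th percentile of the processed signal, by which each array was scaled, was between 93.1 and 114, and 30690 to 31516 of 58201 probes were well above background. The miRNA arrays and the mock arrays lay on 1 slide. Levels are given below as log2 of the processed signal minus the 75th percentile of the array, and differences as a transfected array's level less the mock mean on that scale.

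Antisense probes were dim. Their median signal on the mock arrays was 21.5, against 104 for all named probes that met the rule. Of 1651 antisense probes, 649 were well above background on all 4 arrays, 756 on none and 246 on some. The *miR-486-3p* array alone detected 54 and the *miR-486-5p* array alone 11. Both transfected arrays and neither mock array detected 17 probes, and both mock arrays and neither transfected array detected 8. A further 25 probes were well above background on 1 mock array alone and stayed out.

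At the edge of the rule, probes of *GLIS2-AS1* and *COCH-AS1* were just inside, with highest signals of 4.52 and 4.60. Just outside were probes of *HIF1A-AS1*, *PTPRN2-AS1* and *CFLAR-AS1*, with highest signals of 8.16, 7.51 and 7.49, each reached on 1 mock array only. *HIF1A-AS1* and *PTPRN2-AS1* remained members through another probe. The rule is thus a matter of which arrays detected a probe, not of a fixed signal.

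The mock arrays set the scale of the spread. Between them, 25 of the 649 antisense probes well above background on all 4 arrays (3.85%) differed by over 0.5, with an SD of 0.24. The *miR-486-5p* array was over 0.5 from the mock mean for 195 of these probes (30.0%), with an SD of 0.57. The *miR-486-3p* array was over 0.5 away for 346 (53.3%), with an SD of 0.97.

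The promoters of 4 members are shown as examples of antisense genes that start close to their sense gene, a kind of pair described further on. Each is 300 bases from RefSeq on GRCh38.p14, with 250 bases before the antisense start and 50 after it, 5′ to 3′ on the antisense strand. The window of *CDK6-AS1* lies at chr7:92836233-92836532 (plus strand), with its start 90 bases from that of *CDK6*. That of *LAMTOR5-AS1* lies at chr1:110407559-110407858 (plus strand), 115 bases from the start of *LAMTOR5*. That of *DDX11-AS1* lies at chr12:31073798-31074097 (minus strand), 13 bases from the start of *DDX11*, and that of *DICER1-AS1* at chr14:95157438-95157737 (plus strand), 159 bases from the start of *DICER1*. The starts of *CDK6-AS1* and *LAMTOR5-AS1* face the sense start, and those of *DDX11-AS1* and *DICER1-AS1* are divergent. Capitals mark CCAAT, the GC box GGGCGG and TATAAA on either strand. *CDK6-AS1* held CCAAT 2 times and *DICER1-AS1* held CCAAT and the GC box 1 time each, and none of these letters was found in the windows of *LAMTOR5-AS1* and *DDX11-AS1*.
CDK6-AS1: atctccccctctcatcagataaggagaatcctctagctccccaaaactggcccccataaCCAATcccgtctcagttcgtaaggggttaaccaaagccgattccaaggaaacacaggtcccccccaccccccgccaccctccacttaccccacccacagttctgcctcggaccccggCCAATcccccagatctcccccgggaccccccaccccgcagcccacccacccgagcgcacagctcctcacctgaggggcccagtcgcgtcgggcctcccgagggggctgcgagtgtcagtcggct
LAMTOR5-AS1: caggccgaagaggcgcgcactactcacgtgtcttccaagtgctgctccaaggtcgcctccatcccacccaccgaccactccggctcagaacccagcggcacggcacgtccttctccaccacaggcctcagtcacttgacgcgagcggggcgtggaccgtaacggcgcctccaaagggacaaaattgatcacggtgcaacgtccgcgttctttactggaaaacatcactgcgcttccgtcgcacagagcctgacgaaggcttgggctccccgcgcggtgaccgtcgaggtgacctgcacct
DDX11-AS1: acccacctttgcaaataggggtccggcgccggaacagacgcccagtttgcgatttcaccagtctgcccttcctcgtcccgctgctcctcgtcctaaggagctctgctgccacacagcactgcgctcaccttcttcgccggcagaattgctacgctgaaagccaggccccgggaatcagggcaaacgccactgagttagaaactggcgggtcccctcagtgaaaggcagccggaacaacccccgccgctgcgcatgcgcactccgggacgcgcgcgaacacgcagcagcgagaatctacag
DICER1-AS1: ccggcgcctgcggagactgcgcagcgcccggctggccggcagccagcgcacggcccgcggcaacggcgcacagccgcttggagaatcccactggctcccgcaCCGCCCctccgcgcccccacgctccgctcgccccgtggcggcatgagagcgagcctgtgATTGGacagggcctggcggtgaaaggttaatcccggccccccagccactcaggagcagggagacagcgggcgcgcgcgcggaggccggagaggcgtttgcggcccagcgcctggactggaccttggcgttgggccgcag

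Such windows were on hand for 447 of the 587 members. Their median GC content was 61.7%, against 58.3% for the windows of all 27305 genes in the table, and they held a median of 20 CpG dinucleotides against 14. The GC box was in 48.8% of the members' windows and in 44.6% of all windows. The windows of all 1510 antisense genes in the table, detected here or not, lay below those of all genes. They had a median GC content of 56%, a median of 9 CpG dinucleotides and the GC box in 37%. The higher values thus belong to the members, which were chosen by detection, and not to antisense genes at large. CCAAT was in 30.9% of the members' windows and 35.7% of all windows, and TATAAA in 8.05% and 12%. Among the members paired for *miR-486-3p*, the 132 with starts at most 1000 bases from the sense start held the GC box in 68.2% of windows and TATAAA in 3.03%. The 168 that overlapped their sense gene with starts farther apart held them in 41.1% and 11.9%.

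After *miR-486-5p*, 547 antisense genes had a usable probe. Of these, 59 (10.8%) were below −0.5, where 15.9% of all 16021 named genes were, and 104 (19.0%) were above 0.5, where 13.8% of all genes were. limma, which fits all probes together and takes its error from the mock arrays, called 32 antisense genes lower (5.85%), against 6.77% of all genes, and 24 higher (4.39%), against 3.5% of all genes, at an adjusted p of 0.05. A gene was called when at least 1 of its probes was, in the direction of the gene's mean measured difference. The median difference of the antisense genes was 0.14, against 0.03 for all genes. In 99 genes a probe was dim on one side, so that the value is a bound. Among the 448 antisense genes measured on both sides, 39 were below −0.5 (8.71%), against 15.4% of all such genes, and 75 above 0.5 (16.7%), against 12.5% of all such genes. The limma calls lay close to the threshold, with a smallest adjusted p of 0.0475. On the authors' log2 values limma called 0 antisense genes on either side, with 247 at an unadjusted p under 0.05. The methods' t-test also called 0 after adjustment, with 150 of 870 antisense probes at an unadjusted p under 0.05.

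The lowest members after *miR-486-5p* came well apart from both mock arrays. *DCST1-AS1* was at 0.09 and −0.19 on the mock arrays, at −2.94 with *miR-486-5p* and at −1.61 with *miR-486-3p*. It fell by 2.89 (SE 0.17, limma adjusted p = 0.0475) after *miR-486-5p*, to 13.5% of the mock level, the lowest value of any antisense gene in use. *RHPN1-AS1* was at −0.59 and −0.64 on the mock arrays, at −3.08 with *miR-486-5p* and at −1.39 with *miR-486-3p*. Both transfected arrays were thus below both mock arrays for these members, and the guide strand array was the lower one. The difference of *RHPN1-AS1* was −2.46 (SE 0.09, limma adjusted p = 0.0475). *ATP2A1-AS1*, antisense to the calcium pump gene of fast muscle, was among the brightest named members, with levels of 3.71 and 3.74 on the mock arrays, 1.75 with *miR-486-5p* and 0.62 with *miR-486-3p*. It fell by 1.98 after *miR-486-5p* (SE 0.09, limma adjusted p = 0.0475), and here the passenger strand array was the lower one.

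Next in order among the genes detected on all 4 arrays came *IQCH-AS1* (fell by 1.70), *ZNF32-AS1* (fell by 1.61), *PLBD1-AS1* (fell by 1.39), *PRKAR2A-AS1* (fell by 1.31) and *DICER1-AS1* (fell by 1.28), all called by limma with adjusted p from 0.0475 to 0.0478. *ZNF32-AS1* also overlaps *ZNF32-AS3* on the same strand, and its probe may not tell them apart. *PRKAR2A-AS1* is named after a regulatory subunit of protein kinase A, and *DICER1-AS1* after the enzyme that cuts miRNA precursors. *DICER1-AS1* was at 0.45 and 0.28 on the mock arrays, at −0.91 with *miR-486-5p* and at 1.11 with *miR-486-3p*, so that the mock arrays lay between the strands. *DICER1* itself was at 3.34 and 3.18 on the mock arrays and at 3.44 after *miR-486-5p*, a difference of 0.18 (SE 0.12, limma adjusted p = 0.345).

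Among the members that were higher after *miR-486-5p*, *ZFPM2-AS1* led those detected on all 4 arrays. Its sense gene encodes a zinc finger cofactor of GATA transcription factors. Over 2 probes, *ZFPM2-AS1* was at −0.28 and −0.37 on the mock arrays, at 1.31 with *miR-486-5p* and at 1.57 with *miR-486-3p*. After *miR-486-5p* it rose by 1.63 in one probe and by 1.64 in the other (limma adjusted p = 0.0475 in both), and both transfected arrays were above both mock arrays. *PSMD6-AS2*, named after a lid subunit of the proteasome, was at −3.12 and −2.86 on the mock arrays, at −1.39 with *miR-486-5p* and at −2.60 with *miR-486-3p*. Its difference of 1.60 was called in 1 of 2 probes (adjusted p = 0.0475 and 0.0519), and it overlaps *PSMD6-AS1* on the same strand. *PEA15-AS1* rose by 1.59 (SE 0.16, adjusted p = 0.0486) and *ENO1-AS1*, named after the glycolytic enolase, by 1.48 (SE 0.10, adjusted p = 0.0475).

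*ST3GAL6-AS1* rose by 1.12 and 1.14 in its 2 probes after *miR-486-5p* (limma adjusted p = 0.0475 in both). *FBXL19-AS1* was called in 1 of 2 probes, with a mean difference of 1.22. *CYP1B1-AS1* and *NECTIN3-AS1*, with differences of 1.23 and 1.21, were not called (smallest adjusted p = 0.0526 and 0.0532). The highest value of all antisense genes after *miR-486-5p* was that of *LURAP1L-AS1*, at 2.81, or at least 6.99-fold, since 1 of its 2 probes was dim on the mock arrays. That probe was at −4.62 and −4.72 on the mock arrays and at −1.82 after *miR-486-5p*, and the other, detected on every array, went from −4.06 and −4.11 to −1.33.

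After *miR-486-3p*, 569 antisense genes had a usable probe, and 110 (19.3%) were below −0.5, where 27.2% of all 16443 named genes were. Above 0.5 were 201 (35.3%), where 30.4% of all genes were. limma called 139 antisense genes lower (24.4%), against 31.1% of all genes, and 195 higher (34.3%), against 31.6% of all genes. The median difference was 0.23, against 0.06 for all genes. For 142 genes the value is a bound, and 82 of the 201 genes above 0.5 were bounds. Among the 427 measured on both sides, 82 were below −0.5 (19.2%), against 28.2% of all such genes, and 119 above 0.5 (27.9%), against 27% of all such genes. The smallest adjusted p by limma was 0.00762, while the methods' t-test called 0 after adjustment, with 236 of 870 antisense probes at an unadjusted p under 0.05.

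The split between higher and lower members depended on the scaling, and so did that of all genes. Scaled by the median of each array in place of the 75th percentile, 193 antisense genes were below −0.5 and 109 above 0.5 after *miR-486-3p*, and limma called 218 lower and 124 higher. Those past the limit were 33.9% and 19.2% of antisense genes, against 43.1% and 17.1% of all genes. Of all 16443 genes, limma then called 7644 lower and 3186 higher. Quantile normalization gave 150 below and 144 above (26.4% and 25.3%), against 29.1% and 28% of all genes. The authors' log2 values also gave 150 and 144, against 29.1% and 27.9% of all genes. After *miR-486-5p* the counts below and above were 82 and 73 with median scaling (15% and 13.3%), against 19.8% and 10.3% of all genes. They were 68 and 83 with quantile normalization (12.4% and 15.2%), against 16.3% and 12.7% of all genes. On the authors' values they were 68 and 82 (12.4% and 15%), against 16.3% and 12.6% of all genes. With normexp background correction fewer genes passed the limit, 10 and 15 after *miR-486-5p* and 33 and 55 for *miR-486-3p*. These were 1.83% and 2.74%, against 8.2% and 4.56% of all genes, and 5.8% and 9.67%, against 18.7% and 15.2%. Median scaling moved the median of all genes from 0.06 to −0.35 for *miR-486-3p* and from 0.03 to −0.06 for *miR-486-5p*. Relative to the median of all genes, the antisense genes were 0.17 higher after *miR-486-3p* and 0.11 higher after *miR-486-5p* with the 75th percentile. Median scaling cannot change these gaps, since both scalings subtract a constant from each array. In the same order the gaps were 0.02 and 0.09 with quantile normalization. They were 0.015 and 0.085 on the authors' log2 values, and 0.07 and 0.04 with normexp.

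**Figure D1:**
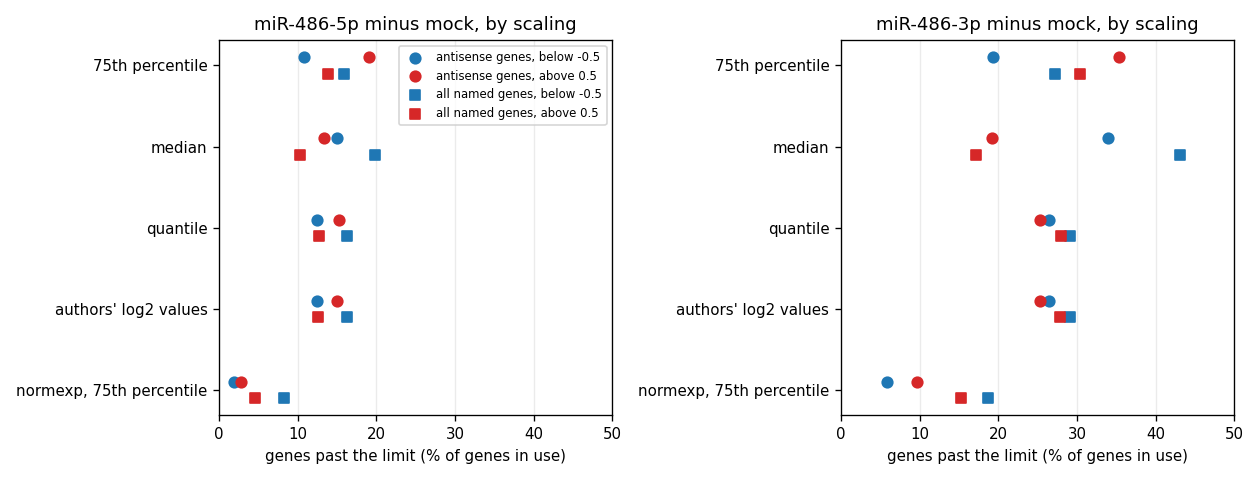
Share of genes below −0.5 (blue) and above 0.5 (red) after *miR-486-5p* (left) and *miR-486-3p* (right), in % of genes in use, for antisense genes (circles) and all named genes (squares) under 5 ways of scaling the arrays. After *miR-486-3p* the antisense genes were 35.3% higher and 19.3% lower with the 75th percentile, and 19.2% higher and 33.9% lower with the median. All named genes were 30.4% higher and 27.2% lower with the 75th percentile, and 17.1% higher and 43.1% lower with the median.

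Other noncoding classes are given for comparison, with no test. LINC genes, the intergenic long noncoding RNAs, were below −0.5 in 8.83% and above 0.5 in 18.9% of 419 genes after *miR-486-5p*, and in 13.5% and 34.9% of 436 genes after *miR-486-3p*. The divergent transcript genes, with symbols ending in -DT, were below −0.5 in 28.1% and above 0.5 in 32.2% of 146 genes after *miR-486-3p*. Genes with a coding (NM) accession were below −0.5 in 28.6% and above 0.5 in 29.2% of 14155 genes after *miR-486-3p*. Non-antisense genes with a noncoding (NR) and no NM accession were so in 17.7% and 39.1% of 1708. Among genes measured on both sides after *miR-486-3p*, the shares below and above were 13.5% and 26.9% for LINC genes. They were 29.9% and 24.3% for -DT genes and 18% and 33.6% for these NR genes, against 28.2% and 27% for all genes. The classes differ in brightness, whose part in these shares was not tested.

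**Figure D2:**
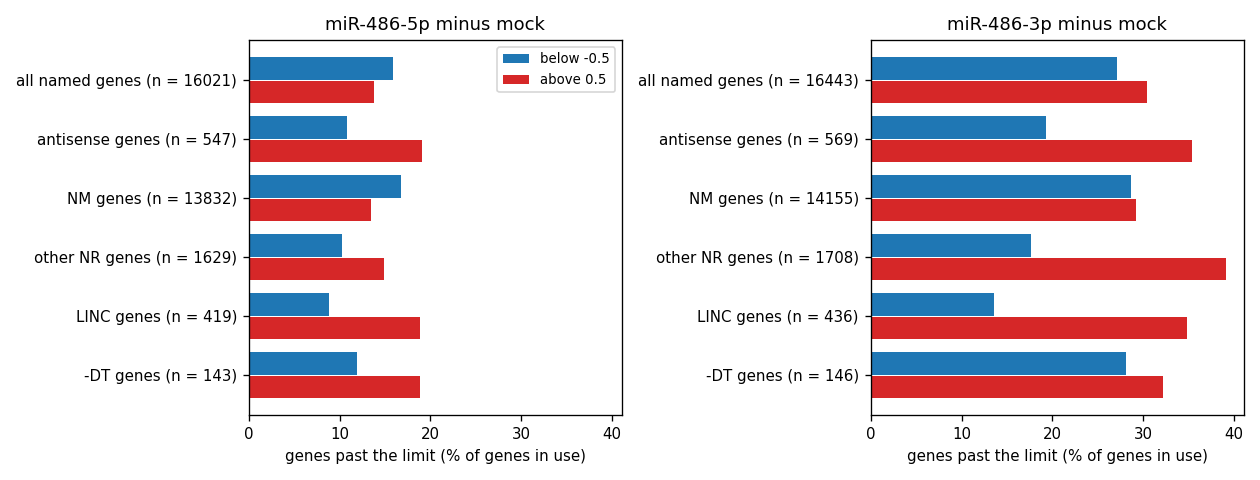
Share of genes below −0.5 (blue) and above 0.5 (red) after *miR-486-5p* (left) and *miR-486-3p* (right) in % of the genes in use of each class, with the number of genes in brackets. Antisense genes were below −0.5 in 10.8% and 19.3% of cases, all named genes in 15.9% and 27.2%. The arrays are scaled by the 75th percentile, and with median scaling more antisense genes were below −0.5 than above 0.5 after either strand. After *miR-486-3p* this also held, by a small margin, with quantile normalization and on the authors' log2 values.

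The lowest antisense gene after *miR-486-3p* was *ATP2A1-AS1*, at 0.62 against 3.71 and 3.74 on the mock arrays. It fell by 3.10 (SE 0.09, limma adjusted p = 0.00762), to 11.7% of the mock level. *TGFB2-AS1* came next at −2.97, a bound, since it was not well above background after *miR-486-3p*. *PRKCQ-AS1*, named after protein kinase C theta, was at 0.44 and 0.21 on the mock arrays, at 0.08 with *miR-486-5p* and at −2.61 with *miR-486-3p*. The mock and *miR-486-5p* arrays were close together, and the passenger strand array was far below them. The fall of *PRKCQ-AS1* by 2.94 was called in both probes (adjusted p = 0.00762 and 0.00878).

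*DDX11-AS1* starts beside the gene of a DNA helicase needed for sister chromatid cohesion. It was at 0.12 on each mock array, at −0.81 with *miR-486-5p* and at −2.12 with *miR-486-3p*. It fell after both strands, by 0.93 (SE 0.09, adjusted p = 0.0475) and by 2.24 (SE 0.09, adjusted p = 0.00762). *CDK6-AS1*, beside the gene of a G1 cyclin-dependent kinase, was at 1.36 and 1.35 on the mock arrays, at 1.35 with *miR-486-5p* and at −0.69 with *miR-486-3p*. Only the passenger strand array differed for *CDK6-AS1*, by −2.02 and −2.07 in its 2 probes (limma adjusted p = 0.00762), with −0.04 and 0.02 after *miR-486-5p*. *AGAP2-AS1* had the same shape, at −1.02 and −1.03 on the mock arrays, −1.10 with *miR-486-5p* and −3.25 with *miR-486-3p*.

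The other members of the 8 lowest after *miR-486-3p* among those detected on all 4 arrays were *SP2-AS1* (−2.38), *ST3GAL6-AS1* (−2.37) and *TBX2-AS1* (−2.08), named after 2 transcription factors and a sialyltransferase. Each was called in both of its probes with adjusted p from 0.00762 to 0.00774. *TBX2-AS1* was at 1.95 and 1.92 on the mock arrays and at −0.15 after *miR-486-3p*.

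Among the members that were higher after *miR-486-3p*, *OGFR-AS1* at 3.87 and *LHFPL3-AS2* at 3.68 had the largest differences, but neither was detected on all 4 arrays. *TMEM92-AS1* was highest of those that were, at −3.54 and −3.73 on the mock arrays, −2.90 with *miR-486-5p* and −0.63 with *miR-486-3p*. It rose by 3.00 (limma adjusted p = 0.00762 and 0.0119 in its 2 probes). *PYCARD-AS1* overlaps the gene of the inflammasome adaptor ASC and was at −3.84 and −3.71 on the mock arrays, −4.12 with *miR-486-5p* and −0.94 with *miR-486-3p*. *PYCARD-AS1* rose by 2.83 (SE 0.11, adjusted p = 0.00762). *LAMTOR5-AS1*, beside the gene of a Ragulator subunit, was at −0.45 and −0.67 on the mock arrays, −0.89 with *miR-486-5p* and 2.03 with *miR-486-3p*, a rise by 2.59 (SE 0.14, adjusted p = 0.00801). For these last 2 members the guide strand array lay below both mock arrays and the passenger strand array above them.

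*KLRK1-AS1*, named after the receptor NKG2D, rose by 2.44 after *miR-486-3p*, *AP1G2-AS1* by 2.25, *ZSWIM8-AS1* by 1.96 and *SRGAP2-AS1* by 1.95 (adjusted p from 0.00762 to 0.0109). *SRGAP2-AS1* lies opposite the duplicate *SRGAP2C*, not *SRGAP2*. *ZSWIM8-AS1* overlaps a gene whose product takes part in the degradation of miRNAs, and it also overlaps the read-through gene *NDST2-ZSWIM8-AS1* on its own strand. *SGMS1-AS1* had a difference of 2.25 but was not called (SE 0.58, limma adjusted p = 0.0625), with mock arrays at −3.28 and −2.18.

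**Figure D3:**
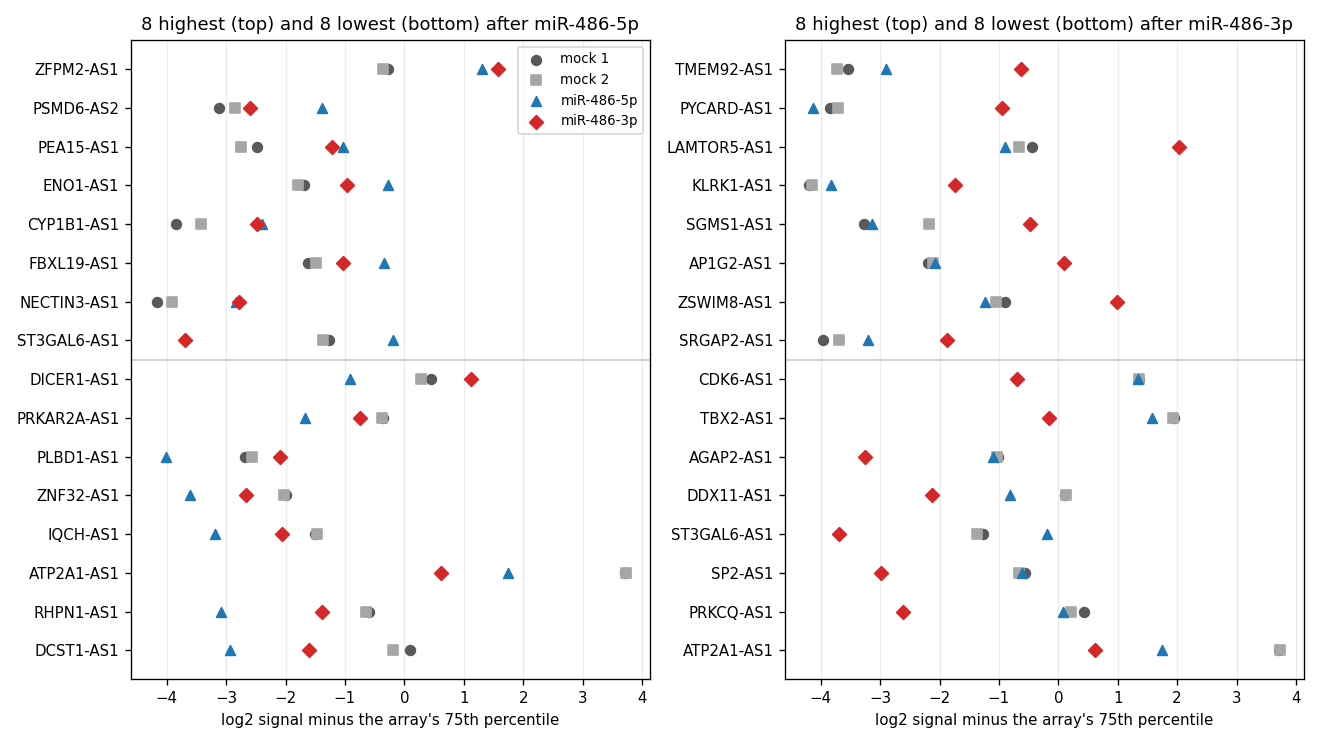
Level of the 8 highest (top) and 8 lowest (bottom) antisense genes after *miR-486-5p* (left) and *miR-486-3p* (right) on each of the 4 arrays, as log2 signal minus the 75th percentile of the array, averaged over the probes in use. The mock arrays (gray) lie farthest apart for *SGMS1-AS1*, at −3.28 and −2.18, and the array of the strand in the title lies outside them.

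Both strands could be compared for 529 antisense genes. Below −0.5 after both were 24 (4.54%), against 8.22% of all 15805 named genes, and above 0.5 after both were 58 (10.96%), against 6.59%. A gene dim on the mock arrays entered only where a transfected array detected it, so its direction was set in part by the rule. *CDKN2A-AS1* is such a gene among the 58. These shares were not computed for genes measured on both sides only, and antisense probes were dimmer than others. limma called 22 lower after both (4.16%), against 4.13% of all genes, and 16 higher after both (3.02%), against 1.93%. Both comparisons share the mock arrays, for antisense and all genes alike. Set directly against *miR-486-5p*, the *miR-486-3p* array was below −0.5 for 113 of 583 antisense genes, against 26.4% of all genes, and above 0.5 for 159, against 28.6% of all genes. limma called 129 lower, against 26.7% of all genes, and 139 higher, against 26.3% of all genes, in this contrast. With median scaling the counts below and above were 202 and 97, and with quantile normalization 155 and 125, so the direction of the split turned. Of all genes, 39.4% and 18.6% were below and above with median scaling, and 28.3% and 27.3% with quantile normalization.

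For 26 antisense genes (4.91%) the strands lay on opposite sides of mock past 0.5, against 4.95% of all named genes. Of these, 13 were lower after *miR-486-5p* and higher after *miR-486-3p*, and 13 the reverse. These genes were chosen for the gap between the strands, so its values are a description. *ST3GAL6-AS1* had the largest gap among the 26. It was at −1.27 and −1.37 on the mock arrays, −0.19 with *miR-486-5p* and −3.69 with *miR-486-3p*, so that the passenger strand array was 3.50 below the guide strand array. *PLBD1-AS1* and *TMEM132D-AS1* stood with *DICER1-AS1* among those with the opposite order, at −1.39 and 0.52, and at −1.01 and 0.94. For *DICER1-AS1* the gap was 2.03.

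**Figure D4:**
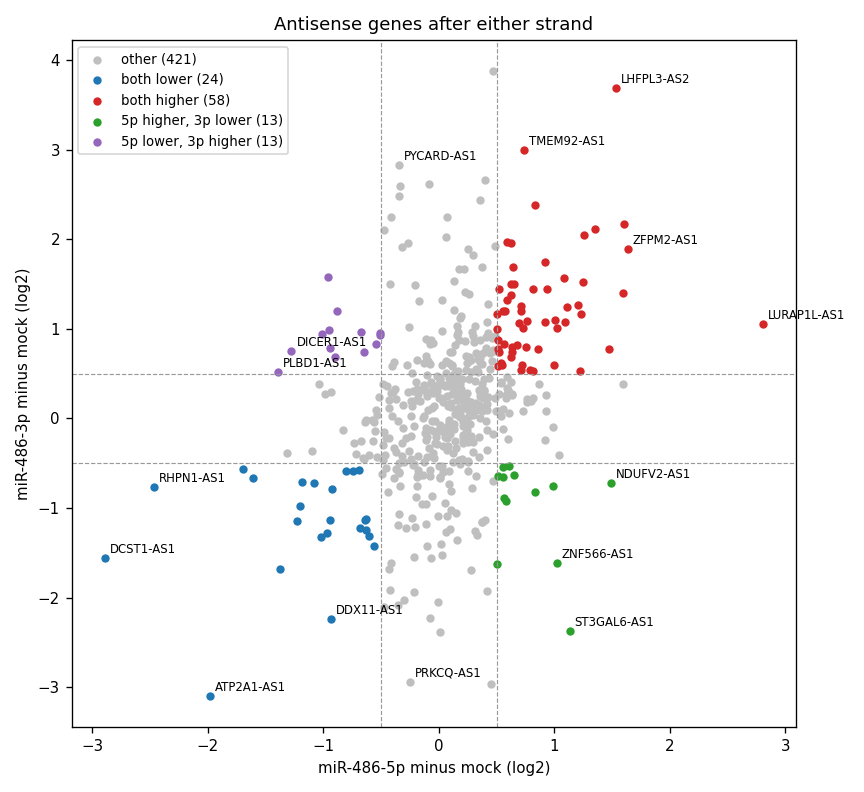
Log2 difference from mock after *miR-486-5p* (x axis) and *miR-486-3p* (y axis) for the 529 antisense genes in use for both, with lines at −0.5 and 0.5 and colors by the group of each gene. *DCST1-AS1*, *RHPN1-AS1* and *ATP2A1-AS1* lie at the lower left and *ST3GAL6-AS1* at the lower right. The x and y values share the mock arrays.

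Several probes gave a check within genes. After *miR-486-5p*, 62 of 178 antisense genes with several probes had probes on opposite sides of 0, and after *miR-486-3p* 63 of 189 did. Fewer had probes past the limit of 0.5 in both directions, 8 of the 178 and 17 of the 189. *FBXL19-AS1* was 1 of the 17 after *miR-486-3p*, with 1.80 (limma adjusted p = 0.00861) in one probe and −0.75 (adjusted p = 0.0267) in the other. *THUMPD3-AS1*, with 4 probes, was between 0.34 and 0.65 after *miR-486-5p*, none of them called.

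Sense genes with a probe were available for 427 antisense genes with the guide strand and for 449 with the passenger strand. After *miR-486-5p*, 10 pairs were higher in both genes, 13 were lower in both, 11 had the antisense gene higher and the sense gene lower, and 8 the reverse. After *miR-486-3p* the numbers were 46, 41, 48 and 17. A gene dim on the mock arrays entered only where the transfected array detected it, so its direction was set in part by the rule. In pairs with both genes measured on both sides, the numbers were 5, 10, 8 and 5 of 325 after *miR-486-5p*. After *miR-486-3p* they were 20, 26, 27 and 12 of 310. Across all 427 and 449 pairs, Pearson's r of the differences was 0.11 and 0.10, as a description over genes that share the arrays. Of 447 sense genes, 32.4% were below −0.5 and 25.3% above 0.5 after *miR-486-3p*, against 27.2% and 30.4% of all genes. After *miR-486-5p*, 19.1% and 10.6% of 425 were, against 15.9% and 13.8% of all genes. The pair counts were not set against what the shares of each gene alone would give.

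Pairs were set apart by the distance between their start sites. After *miR-486-3p*, in 132 pairs with starts at most 1000 bases apart, 29 had both genes past 0.5 in the same direction and 9 in opposite directions (r = 0.35). In 168 pairs that overlap with starts farther apart, 35 and 30 did so (r = 0.05). After *miR-486-5p* the counts were 8 and 3 of 127 near pairs (r = 0.17) and 9 and 9 of 160 overlapping pairs (r = 0.09). These counts include pairs with a bound, and the difference between the kinds of pair is a description, with no test.

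*CDK6-AS1* and *CDK6* fell together after *miR-486-3p*. *CDK6* was at 5.07 and 4.92 on the mock arrays, at 4.94 with *miR-486-5p* and at 3.57 with *miR-486-3p*, a fall by 1.42 (SE 0.12, limma adjusted p = 0.0106) beside the fall by 2.05 of its antisense gene. *BOK-AS1* and *BOK*, a member of the BCL2 family, fell by 1.94 and 1.47 (adjusted p = 0.00762 and 0.00865). *BOK-AS1* was at 0.82 on each mock array, 0.61 with *miR-486-5p* and −1.12 with *miR-486-3p*, and it overlaps *LOC105373974* on the same strand.

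*LAMTOR5* rose with *LAMTOR5-AS1*, by 1.25 (SE 0.09, adjusted p = 0.00914), from 4.91 and 4.89 to 6.15. *DEPDC1-AS1* fell by at least 1.68 with *DEPDC1*, whose 2 probes were at −2.61 and −1.91. In other near pairs the sense gene differed less than the antisense gene. *DDX11*, 13 bases from *DDX11-AS1*, differed by −0.47 in the mean of 3 probes after *miR-486-3p* (range −0.55 to −0.42, adjusted p from 0.0351 to 0.0562), against −2.24 for the antisense gene. *ST3GAL6* differed by −0.41 (SE 0.09, adjusted p = 0.0507), against −2.37 for *ST3GAL6-AS1*.

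**Figure D5:**
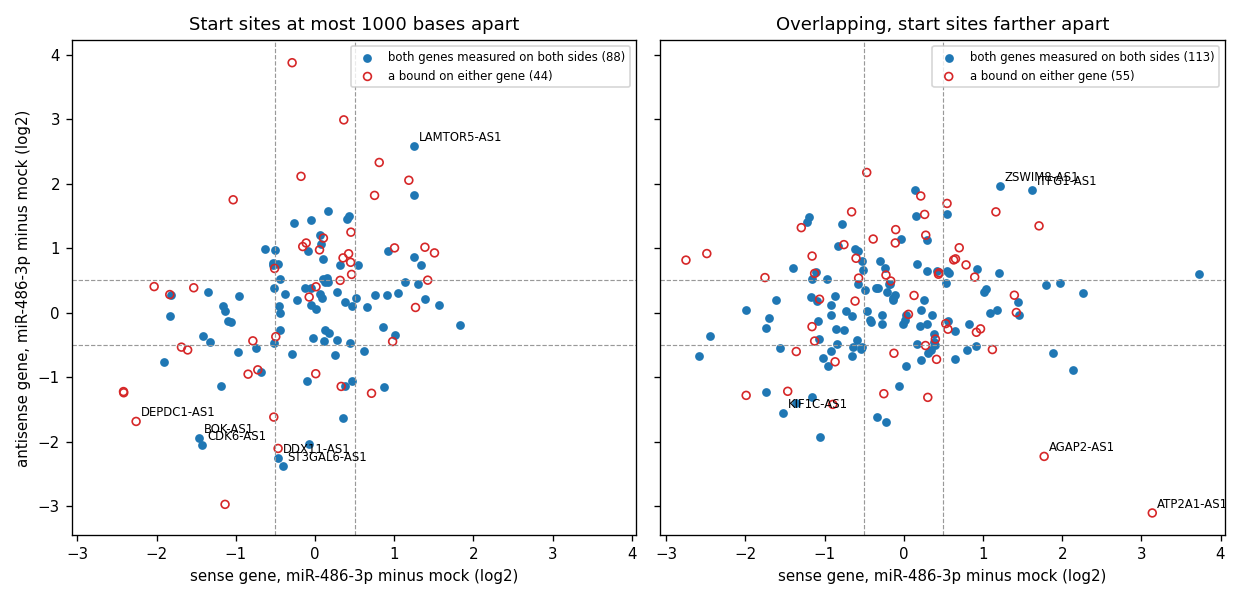
Log2 difference of the sense gene (x axis) and of its antisense gene (y axis) after *miR-486-3p* for 132 pairs with start sites at most 1000 bases apart (left) and 168 overlapping pairs with starts farther apart (right). Open circles mark pairs in which a gene was not measured on both sides. Pearson's r was 0.35 on the left and 0.05 on the right.

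Among pairs that overlap with starts farther apart, *ITFG1-AS1* and *ITFG1* rose after *miR-486-3p* by 1.91 and 1.62 (limma adjusted p = 0.0161 and 0.00907), and *KIF1C-AS1* and the kinesin gene *KIF1C* fell by 1.55 and 1.53 (adjusted p = 0.0188 and 0.00823). *SLC44A3-AS1*, which does not overlap its sense gene, with mock arrays at −4.87 and −4.45 and −2.73 after *miR-486-3p*, had a difference of 1.93, with 2 of its 3 probes called, and *SLC44A3* rose by 2.05. After *miR-486-5p* the leading pairs were *CYP1B1-AS1* with *CYP1B1*, a cytochrome P450 (differences of 1.23 and 1.10), *SOCS2-AS1* with the cytokine signaling inhibitor *SOCS2* (−0.92 and −1.70), *NINJ2-AS1* with *NINJ2* (−1.02 and −1.53) and *ZNF32-AS1* with *ZNF32* (−1.61 and −0.87). *HECW2-AS1*, dim on the mock arrays in 1 of 2 probes, was at 1.25 as a bound, and *HECW2*, not called, at 1.19 (adjusted p = 0.097).

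Pairs in opposite directions were led by *ATP2A1-AS1*. While the antisense gene fell by 3.10 after *miR-486-3p*, *ATP2A1* was at −4.73 and −4.87 on the mock arrays and at −1.36 after *miR-486-3p*, a difference of 3.14 as a bound over 3 probes (2.57 to 3.52). *AGAP2* rose from −5.00 and −4.63 to −2.90 (a bound of 1.77, limma adjusted p = 0.0158) while *AGAP2-AS1* fell. A probe not detected on both mock arrays entered only because the *miR-486-3p* array detected it. The direction of *ATP2A1* and *AGAP2* was thus set in part by the rule. *ZFPM2* was at −1.71 and −1.67 on the mock arrays, −2.80 with *miR-486-5p* and −3.41 with *miR-486-3p*, lower after both strands while *ZFPM2-AS1* was higher after both. Its differences were −1.11 (SE 0.09, adjusted p = 0.0475) and −1.73 (SE 0.09, adjusted p = 0.00774).

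*SOX9*, a developmental transcription factor, fell by 2.43 after *miR-486-3p* (SE 0.18, adjusted p = 0.00976), from 1.29 and 0.98 to −1.30, while *SOX9-AS1* rose by 1.31 (SE 0.10, adjusted p = 0.00953). *SPAG5*, which encodes a spindle protein, fell by 2.27 (adjusted p = 0.00762), and *SPAG5-AS1* was 1.69 higher (adjusted p = 0.0191 and 0.0215). After *miR-486-5p*, *SBF2-AS1* at −0.74 and *SBF2* at 0.77 were not called (smallest adjusted p = 0.053 and 0.0557), and neither was *LURAP1L* at −0.97 (adjusted p = 0.054) beside *LURAP1L-AS1*. *SBF2-AS1* overlaps *LOC105369149* on the same strand.

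Antisense genes that have been studied most were the 66 on a list by name, of which 54 were usable with the guide strand and 57 with the passenger strand. After *miR-486-5p*, 11 were below −0.5 and 4 above 0.5, where 15.9% and 13.8% of all genes were. Their median was −0.11, against 0.14 for all antisense genes. limma called 5 of them lower and 1 of them higher, where 6.77% and 3.5% of all genes were called. After *miR-486-3p* 25 were below and 15 above, where 27.2% and 30.4% of all genes were. The median was −0.30 against 0.23, and 30 were called lower and 15 higher, where 31.1% and 31.6% of all genes were. The lowest after *miR-486-3p* were *ATP2A1-AS1*, *PRKCQ-AS1*, *DDX11-AS1* and *ST7-AS1* (−2.10, a bound), and the highest *SGMS1-AS1*, *ZFPM2-AS1* (1.89), *SMAD5-AS1* (1.69) and *RNF217-AS1* (1.16), the last 2 as bounds. After *miR-486-5p* *PCNA-AS1*, antisense to the replication clamp, was at −0.97 (adjusted p = 0.0505), and *MAGI2-AS3* at 0.60 in 3 probes, none called. The list was drawn up with earlier results of these arrays known and is no independent evidence of a direction. The lists were counted with 75th percentile scaling only.

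By the role of the sense gene, 11 members were antisense to genes of DNA replication or cell division. After *miR-486-5p* 3 of them were below −0.5 and 2 above 0.5, and after *miR-486-3p* 6 and 5. Of all genes, 15.9% were below and 13.8% above after *miR-486-5p*, and 27.2% and 30.4% after *miR-486-3p*. Only 5 of the 11 members were measured on both sides after *miR-486-3p*, with 4 below and 1 above. The lowest of the 11 after *miR-486-3p* was *DDX11-AS1*. Their highest was *CDKN2A-AS1*, at 1.20 as a bound (adjusted p = 0.0733), while *CDKN2A* fell by 2.23 (limma adjusted p = 0.00762). Of 8 antisense to genes of innate immunity or the interferon response, 2 were below −0.5 and 0 above 0.5 after *miR-486-5p*, and 2 and 3 after *miR-486-3p*, with *TRIM31-AS1* highest at 0.86 (SE 0.16, adjusted p = 0.0341) and *SOCS2-AS1* lowest at −0.79. *HLA-F-AS1* was their highest after *miR-486-5p*, at 0.45, and not called. After *miR-486-3p* it counted among the 3 above 0.5, at 0.55 with the dim array of 1 probe raised to the lowest signal well above background, while its mean as measured was −0.23 and limma called it lower. Its probes went opposite ways (0.92 and −1.39 as measured, limma adjusted p = 0.0184 and 0.0105).

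Antisense genes of homeobox and other developmental transcription factors numbered 32 after *miR-486-3p*. Of these, 11 were below −0.5 and 10 above 0.5, with a median of 0.03, led by *TBX2-AS1* at −2.08 and *ZFPM2-AS1* at 1.89. For this list and the 2 that follow, the shares of all genes below and above were 27.2% and 30.4% after *miR-486-3p*. After *miR-486-5p* they were 15.9% and 13.8%. After *miR-486-5p*, 2 of 31 developmental members were below and 4 above, with *NR2F1-AS1* lowest at −0.64 over 4 probes of which 1 was called. Those of zinc finger genes had 3 of 23 below and 8 above after *miR-486-3p*. Their ends were *ZNF566-AS1*, at −1.62 as a bound, and *ZNF503-AS2*, at 2.33, or at least 5.02-fold. After *miR-486-5p* 4 of 22 were below and 4 above. Those of solute carriers and ATP-dependent transporters had 5 of 19 below and 6 above after *miR-486-3p*, from *ATP2A1-AS1* at −3.10 to *SLC44A3-AS1* at 1.93, and 3 of 18 below and 4 above after *miR-486-5p*, with *ATP6V1B1-AS1*, named after a subunit of the proton pump, highest at 0.99 (SE 0.11, adjusted p = 0.0513). In most members the annotation placed another transcript on the opposite strand. Of the 447 with a start and strand in the table, 339 overlapped an opposite-strand gene, 318 their own sense gene and 36 a same-strand gene, for which the probe may read both.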

How the data were processed

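RNA of 4 samples was labeled with Cy3 and hybridized to 1-color Agilent arrays. The authors deposited the intensity of each spot as background-corrected by Agilent Feature Extraction 12.1.1.1, and a table of log2 values. Each deposited log2 column correlated with the log2 scanner signal at 0.9996 or above and had the median 2.76, with method and centering not stated. The array design was annotated on hg19, so no coordinates were taken from it.

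The log2 of the processed signal was taken, outlier spots were left out, spots of a probe were averaged, and each array's 75th percentile was subtracted. A probe was named through its RefSeq accession in a table of GRCh38.p14. Such an accession was listed for 33080 probes, of which 31100 were found there, giving 22435 genes. A probe was used where both mock arrays, or the transfected one, showed it well above background. A side that was dim throughout took the lowest signal well above background unless its own was higher, which makes the difference a bound ("at least"). Genes are means over probes. Fold changes come from these log2 differences. Counts used a limit of 0.5. limma 3.58.1 in R 4.3.3 (lmFit, eBayes) was fitted to 33498 probes, 4 arrays and 3 groups, with Benjamini-Hochberg adjustment over all probes at 0.05. Its 1 residual degree of freedom lies between the mock arrays, and a lone transfected array was assumed to vary as much as they did. Tables and figures were made with Python 3.11.15, pandas 2.3.3, numpy 2.4.6 and matplotlib 3.10.9, and the fit was tested on simulated data.

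Named genes were, for each strand, the 8 lowest and 8 highest among those well above background on all 4 arrays and above or below both mock arrays alike, the 5 leading pairs in each direction, the ends of each list and the members at the edge of the detection rule. *TMEM132D-AS1*, *TGFB2-AS1*, *OGFR-AS1*, *LHFPL3-AS2* and the sense genes *DDX11*, *ST3GAL6*, *DICER1*, *LAMTOR5* and *CDK6* fall outside this rule and were chosen after their values were seen. The members and the 6 lists were chosen with earlier results of these data known. A few items that this rule names are not reported here. Precision is limited by the number of arrays.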

Additional observations from a re-analysis of the deposited data

Results flagged for a closer look

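The limma contrast of *miR-486-3p* minus *miR-486-5p* itself called 5 antisense genes that the naming rule gave and that lay on opposite sides of mock past 0.5. *TMEM132D-AS1*, chosen outside that rule after its values were seen, was called in the same way and is not counted here. Since these genes were picked for lying on opposite sides, the adjusted p largely restates that choice. *ST3GAL6-AS1* was −3.50 in this contrast (adjusted p = 0.0119 in both probes), *ZNF566-AS1* −2.64 as a bound (adjusted p = 0.0262) and *ATP6V1B1-AS1* −1.74 (adjusted p = 0.0133). *DICER1-AS1* was 2.03 (adjusted p = 0.0126) and *PLBD1-AS1* 1.92 (adjusted p = 0.0122). Each strand has 1 array, and groups of 1 or 2 arrays are too small to look for a single array that stands apart.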

How the results depend on the processing

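Counts are given in order for lower and higher antisense genes. The shares of all genes past 0.5 under the other scalings are given above. Of all 16021 genes, limma called 2360 lower and 966 higher with median scaling after *miR-486-5p*, and 3783 and 3637 with normexp. After *miR-486-3p* it called 5602 and 7298 of 16443 with normexp. A limit of 1 in place of 0.5 left 17 and 23 after *miR-486-5p*, 54 and 93 with the passenger strand, and 56 and 70 between the strands, with 29 pairs in the same direction and 14 in opposite directions after *miR-486-3p* and 3 and 2 after *miR-486-5p*. Median scaling gave 193 and 109 after *miR-486-3p* (limma 218 and 124) and 202 and 97 between the strands (limma lower 195), and limma called 65 and 48 after *miR-486-5p*. normexp, run on the median spot signal with an offset of 50, gave 10 and 15 (limma 52 and 120) after *miR-486-5p*, 33 and 55 (limma higher 313) after *miR-486-3p* and 33 and 33 between the strands, with 4 pairs alike and 1 opposite after *miR-486-5p* and 12 and 14 after *miR-486-3p*. Without a filter on dim probes the counts were 92 and 201 after *miR-486-5p*, 319 higher after *miR-486-3p* and 260 higher between the strands, with 50 pairs alike and 39 opposite after *miR-486-5p* and 145 alike after *miR-486-3p*. limma then called 0 and 0 after *miR-486-5p*, with 252 genes at an unadjusted p under 0.05, and on the authors' log2 values also 0 and 0, with 247.

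Probes detected on all 4 arrays gave limma counts of 66 and 105 after *miR-486-5p*, 56 pairs alike after *miR-486-3p* and 103 genes higher between the strands. An intensity trend in limma gave 79 and 109 after *miR-486-5p*. The methods' t-test with Benjamini-Hochberg adjustment called 0 and 0 after either strand, with 150 and 236 of 870 antisense probes at an unadjusted p under 0.05 for the guide and the passenger strand. It could not be run between strands. Genes measured on both sides, an alternative chosen after seeing the data, gave 39 lower (limma higher 14) and 15 pairs alike after *miR-486-5p*, 119 higher (limma higher 129) with 46 pairs alike and 39 opposite after *miR-486-3p*, and 100 higher (limma higher 83) between the strands. The split of antisense genes turned to more lower than higher with median scaling after either strand. After *miR-486-3p* it also turned, by a small margin, with quantile normalization and on the authors' log2 values. Among the results on named genes that were checked, no called difference changed sign under the alternatives run. *HLA-F-AS1* after *miR-486-3p* was not checked, and there its bound and its mean as measured differ in sign.

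Leaving out a mock array takes away the last residual degree of freedom, so these values have no test. The counts below −0.5 and above 0.5 were then 66 and 97 to 105 after *miR-486-5p*, and 110 to 111 and 185 to 210 after *miR-486-3p*. Detection then rests on 1 mock array, and of 82 results on named genes 4 moved by more than the spread without mock 1 and 7 without mock 2. *SGMS1-AS1* after *miR-486-3p* ran from 1.70 to 2.80 and *ZNF566-AS1* from −1.92 to −1.31. After *miR-486-5p*, *ZNF566-AS1* ran from 0.71 to 1.33 and *HECW2* from 0.93 to 1.44, and without mock 2 *IQCH-AS1* was at −1.16, *NECTIN3-AS1* at 0.50 and *ATP2A1* at 0.74. No paired analysis was possible because each strand has 1 array, which carries no replicate number shared with the mock arrays. Slide as a block was not run, since all arrays lay on 1 slide, nor were the gene names of the scanner files, which hold no such column as used here. A difference with a dim side is a bound.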
